A study of Homo sapiens with 4 samples.

Results

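The genes described here encode the machinery by which a cell displays peptides to T cells, together with the stress ligand *MICB*, and were followed in a colon cancer cell line exposed to DNA-demethylating drugs. A list of 34 genes was used, namely 20 of the class I pathway, 12 of the class II pathway and 2 stress ligands. Gene probes of the array were named through their RefSeq accession, and 33 of the 34 genes had a probe among the 25006 named genes, *MICA* being the exception. Each gene was represented by its probe with the highest mean signal over the 4 arrays.

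HML58-3, a derivative of the human colon cancer line HCT116 that carries a luciferase reporter under a methylated promoter, was analysed under 4 conditions. They were a mock treatment, DAC (decitabine, a nucleoside analogue that is incorporated into DNA and traps DNA methyltransferases), OR-2003 and OR-2100, both of which the study made as prodrugs of DAC. Each drug was given at 1 µM from day 1 and the cells were collected at day 5. Total RNA of each condition was hybridized to 1 one-colour array, so the groups are single samples of 1 derivative line, no difference has a replicate check, and the 3 drugs share the same mock array.

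Class I molecules consist of a heavy chain and beta-2-microglobulin, and on nearly all nucleated cells they display peptides that the proteasome cut from the cell's own proteins, that TAP carried into the endoplasmic reticulum and that the peptide-loading complex fitted into the groove. Class II molecules are pairs of an alpha and a beta chain, are found mainly on professional antigen presenting cells, and receive peptides from the endosomal pathway with the help of the invariant chain and the exchange factor HLA-DM. Interferon-gamma raises both pathways, through NLRC5 for class I and CIITA for class II, and tumour cells often lose parts of either.

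Levels are log2 intensities with the 75th percentile of the array set to 0, and the differences given are drug minus mock on this log2 scale. Following the study, induction was called where a drug array exceeded mock 2-fold or more and reached a level of −1, and, by a mirrored rule set here, reduction was called where it lay 2-fold or more under a mock level of −1 or above. The level at which a probe can be told from background was near −4.29 to −4.55, and values of a probe that was not well above background are bounds only. Probes printed in 10 spots on the array and well above background had a median SD between spots of 0.0590 to 0.0668 per array, which corresponds to a median SD of 0.0834 to 0.0944 for a difference of single spots. This is the error within an array and does not hold the spread between cultures. *SFRP1*, a methylated gene that the study used to check the drugs, had a level of −3.82 in mock, −0.59 with DAC, −0.71 with OR-2003 and −0.43 with OR-2100.

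Of the 33 genes, 29 were well above background on all 4 arrays and 1, *HLA-DQA1*, on none. DAC induced 4 of the 33, where 5.77% of the 25006 named genes were induced, and OR-2003 and OR-2100 each induced 5 of the 33, against 5.89% and 5.81% of all named genes. The immunoproteasome subunit *PSMB8*, the peptide transporter subunit *TAP1*, the class II beta chain *HLA-DPB1* and the stress ligand *MICB* were induced with all 3 drugs, a call that 5.27% of all named genes shared. *HLA-DPA1*, the partner chain of *HLA-DPB1*, was induced with OR-2003 and OR-2100 and stood just short of the criterion with DAC. *HLA-DQB1* was the only gene of the list that was reduced, with every drug, where 5.96% of all named genes were reduced with DAC, 6.05% with OR-2003, 6.82% with OR-2100 and 5.21% with every drug. The other 27 genes were neither induced nor reduced with any drug. The median of the mean difference over the 3 drugs was 0.08 for the 33 genes and −0.15 for all named genes.

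**Figure D1:**
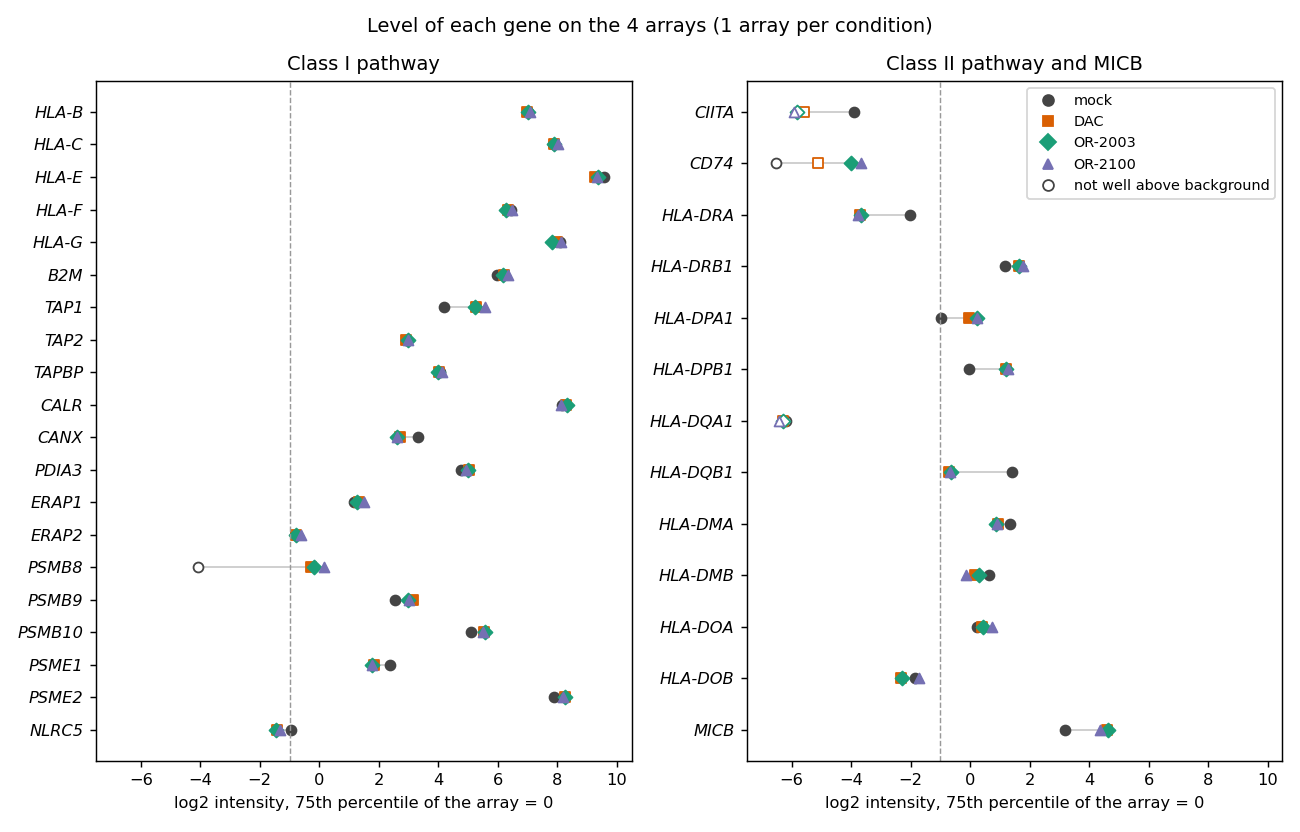
Level of each gene (log2 intensity, 75th percentile of the array set to 0) on the mock, DAC, OR-2003 and OR-2100 arrays, 1 symbol per array, with open symbols where the probe was not well above background and a dashed line at the level of −1. The heavy chains sit far to the right with the 4 symbols close together, and *PSMB8*, *TAP1*, *HLA-DPA1*, *HLA-DPB1*, *HLA-DQB1*, *HLA-DRA* and *MICB* show the mock symbol apart from the 3 drug symbols.

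The peptide-presenting core of class I was already strong in mock and none of its 6 genes was induced or reduced. *HLA-B*, a classical heavy chain, had a level of 7.0 in mock, 6.99 with DAC, 7.03 with OR-2003 and 7.08 with OR-2100, so the 4 arrays of this probe lay within the noise between spots. Its second probe, also bright, differed by −0.28, −0.27 and −0.06, which for DAC and OR-2003 is larger than that noise. *HLA-C*, the other classical heavy chain of the list, had levels of 7.86, 7.90, 7.89 and 8.03 in the same order. *HLA-E*, whose product presents leader peptides to NK cell receptors, had 9.58 in mock and 9.26, 9.36 and 9.32 with the drugs, differences of −0.33, −0.23 and −0.26. *HLA-F* and *HLA-G*, nonclassical heavy chains, differed from mock by −0.17 to 0.04 and by −0.26 to 0.05, and a second probe of *HLA-F* by 0.40 to 0.67. These small differences have no settled direction, since the mean difference of each of the 5 heavy chains turned its sign under at least 1 of 8 alternative settings. The heavy chains are also polymorphic and close in sequence, and whether their probes also bind the transcript of another heavy chain or match the alleles of this line was not tested.

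*B2M*, the light chain shared by all class I molecules, was printed in 10 spots and can be read against its own spot error. Its level was 5.99 ± 0.025 in mock (SD, n = 7 spots), 6.21 ± 0.055 with DAC (SD, n = 7 spots), 6.17 ± 0.039 with OR-2003 (SD, n = 9 spots) and 6.35 ± 0.059 with OR-2100 (SD, n = 10 spots). With the 75th percentile set to 0, the highest of the mock spots was 6.01 and the lowest spot of any drug array was 6.12. The spots of mock then did not overlap with those of any drug. The size was small, at 1.16-fold, 1.13-fold and 1.28-fold, and spots of 1 array share 1 RNA. It also depends on the scaling, since the mean difference over the drugs was 0.25, but 0.11 with the array median set to 0. The spots were not compared under that scaling. How many other probes with 10 spots show such a separation was not counted.

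For 4 genes of the class I pathway and the stress ligand group the sequence around the gene start is shown, because 3 of them (*PSMB8*, *TAP1* and *MICB*) were induced and the fourth, *HLA-B*, was not. Each is a 300-base RefSeq window (GRCh38.p14) around an annotated start, most of it upstream, written 5′ to 3′ along the gene. Each CpG dinucleotide, the site at which DNA methyltransferases act, is in capitals. Where a gene had several windows, the one with the lowest coordinate was taken, which on the minus strand is the most downstream.
*PSMB8*, chr6:32843998-32844297, minus strand: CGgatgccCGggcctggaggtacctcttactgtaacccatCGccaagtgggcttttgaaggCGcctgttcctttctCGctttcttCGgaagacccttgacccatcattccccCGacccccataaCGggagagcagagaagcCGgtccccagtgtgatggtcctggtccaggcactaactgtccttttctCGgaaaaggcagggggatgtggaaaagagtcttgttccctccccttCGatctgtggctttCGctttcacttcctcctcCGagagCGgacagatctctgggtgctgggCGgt
*TAP1*, chr6:32852712-32853011, minus strand: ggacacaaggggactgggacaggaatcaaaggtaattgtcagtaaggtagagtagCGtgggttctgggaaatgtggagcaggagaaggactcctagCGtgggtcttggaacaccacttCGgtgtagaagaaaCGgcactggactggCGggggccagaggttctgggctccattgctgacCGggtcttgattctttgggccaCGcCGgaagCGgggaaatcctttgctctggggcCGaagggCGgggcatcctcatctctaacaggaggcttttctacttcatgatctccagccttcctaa
*MICB*, chr6:31497895-31498194, plus strand: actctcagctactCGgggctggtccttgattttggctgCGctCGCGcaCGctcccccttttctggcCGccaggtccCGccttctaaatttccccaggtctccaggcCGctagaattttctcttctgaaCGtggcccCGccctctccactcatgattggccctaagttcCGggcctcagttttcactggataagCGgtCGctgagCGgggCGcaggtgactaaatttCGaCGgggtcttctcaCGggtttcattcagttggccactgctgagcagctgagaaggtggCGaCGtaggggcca
*HLA-B*, chr6:31357130-31357429, minus strand: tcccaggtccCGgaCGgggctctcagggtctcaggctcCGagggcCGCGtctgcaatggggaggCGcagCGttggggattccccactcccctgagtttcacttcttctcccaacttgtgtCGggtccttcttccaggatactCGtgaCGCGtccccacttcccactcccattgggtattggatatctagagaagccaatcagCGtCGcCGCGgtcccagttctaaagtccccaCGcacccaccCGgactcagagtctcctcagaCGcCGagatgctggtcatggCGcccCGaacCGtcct

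These windows hold 15, 11, 20 and 22 CpG dinucleotides for *PSMB8*, *TAP1*, *MICB* and *HLA-B*, against a median of 13 and an interquartile range of 3 to 28 over 27305 promoters. The methylation of these sites was not measured here. *TAP1* and *PSMB8* are next to each other on chromosome 6, with *TAP2* on one side and *PSMB9* on the other, by the order of protein-coding genes in the RefSeq annotation.

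Among the 8 genes of peptide transport, trimming and loading, *TAP1* was induced and the other 7 were not. *TAP1*, the subunit of the peptide transporter encoded beside *PSMB8*, had a level of 4.19 in mock, 5.26 with DAC, 5.25 with OR-2003 and 5.59 with OR-2100. All 3 drug arrays were above mock, by 1.07, 1.05 and 1.39, or 2.09-fold, 2.07-fold and 2.62-fold. These folds stand close to the 2-fold criterion, and with a normexp background correction the difference with OR-2003 was 0.99 and no longer counted as induced, while with the array median set to 0 the calls with DAC and OR-2003 were lost. *TAP2*, its partner in the transporter, had levels of 2.91, 2.90, 2.97 and 2.99, within the noise between spots, but its second probe differed by −0.24, −0.51 and −0.68. *TAPBP*, which bridges the transporter and the empty class I molecule, differed by −0.04 to 0.09 with the probe used. Its 2 other probes were above mock with every drug, by 0.31, 0.18 and 0.55 and by 0.60, 0.64 and 1.04, the last of which met the criterion for induction. The chaperone *CALR* differed by −0.02 to 0.17 and *PDIA3*, the oxidoreductase of the loading complex, by 0.20 to 0.28. *CANX*, the membrane-bound chaperone of newly made heavy chains, was the gene of this group with the lowest values relative to mock, with a level of 3.30 in mock and 2.72, 2.63 and 2.62 with the drugs, or 1.49-fold to 1.61-fold lower. A second probe of *CANX* differed by −0.76, −0.75 and −1.07, the last of which met the criterion for reduction. The aminopeptidases *ERAP1* and *ERAP2*, which trim peptides in the endoplasmic reticulum, differed by at most 0.36.

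Of the 5 genes of the immunoproteasome and its activator, *PSMB8* was induced with every drug. *PSMB8* encodes the catalytic subunit beta5i that replaces a constitutive subunit under interferon. It had a level of −4.06 in mock, where it was not well above background, and −0.26 with DAC, −0.19 with OR-2003 and 0.15 with OR-2100, where it was. Against its own mock value, which lay above the background limit of that array and so serves as the bound, this was at least 13.9-fold, at least 14.6-fold and at least 18.5-fold higher, respectively. The size depends on the processing. With normexp, used here with an offset of 50 added to every signal, the differences were 1.35, 1.37 and 1.59. The parts of the background correction and of the offset were not tested separately, here or for the other normexp values. *PSMB8* was also no longer called when arrays were scaled on bright probes alone, which raises the level that a gene has to reach. *PSMB9* and *PSMB10*, the other catalytic subunits of the immunoproteasome, were above mock by 0.46 to 0.62 and by 0.40 to 0.48, each with all 3 drugs and each under 2-fold. *PSME1* and *PSME2*, the paired subunits of the proteasome activator PA28, went opposite ways. *PSME1* had 2.38 in mock and 1.82, 1.79 and 1.77 with the drugs, while *PSME2* had 7.90 in mock and 8.26, 8.25 and 8.18. Both were less than 2-fold from mock.

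*NLRC5*, the transactivator of class I genes, was lower on every drug array with the probe used. Its level was −0.96 in mock, −1.43 with DAC, −1.46 with OR-2003 and −1.31 with OR-2100, and its second probe differed by −0.46, −0.46 and 0.09, so the sign with OR-2100 is not settled.

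*MICB*, a ligand of the activating receptor NKG2D on NK and T cells, had a level of 3.20 in mock, 4.60 with DAC, 4.63 with OR-2003 and 4.38 with OR-2100. The 3 drug arrays were close together and all above mock, by 2.64-fold, 2.70-fold and 2.27-fold. A second probe of *MICB* differed by 1.44, 1.40 and 1.48 on the log2 scale, so both probes met the criterion with every drug. *MICA*, its neighbour on chromosome 6, had no named probe and was not analysed here.

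**Figure D2:**
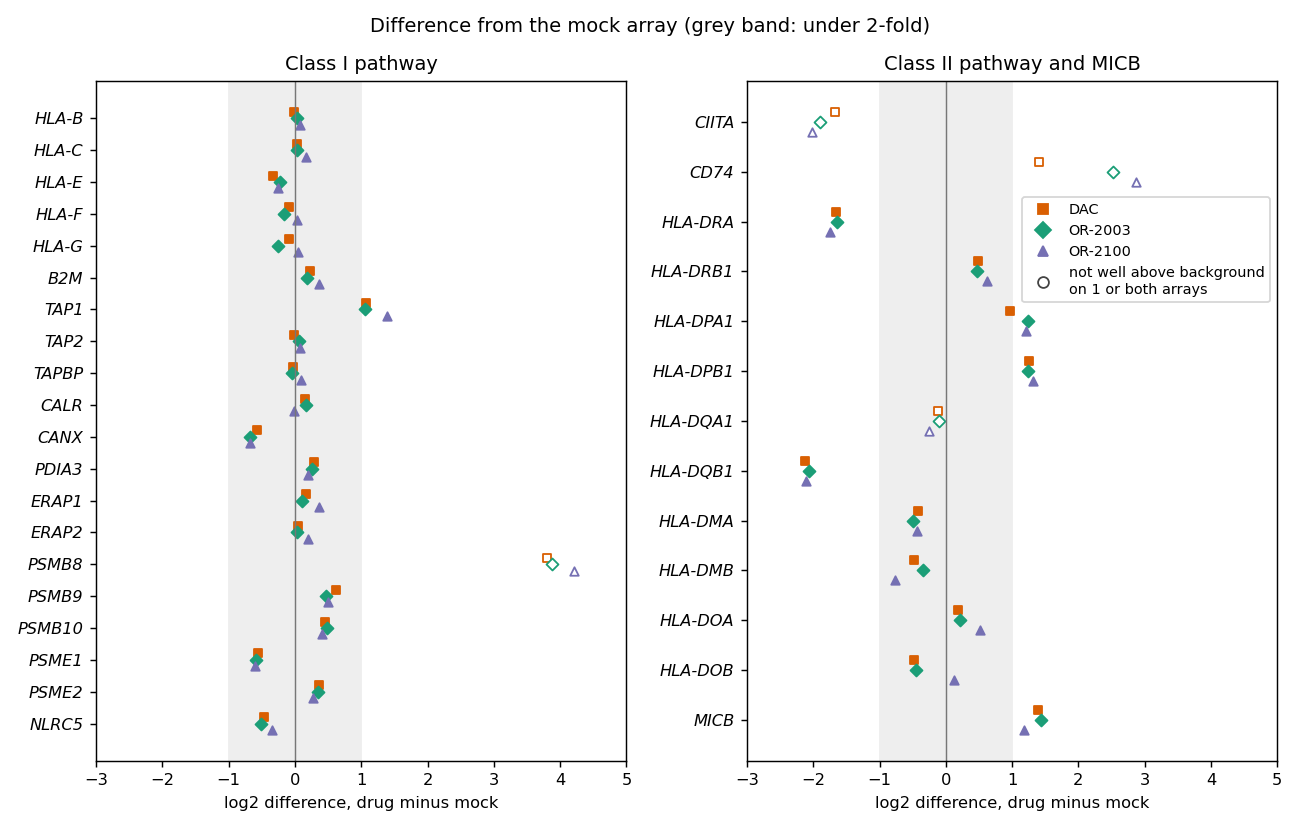
Difference of each gene from the mock array on the log2 scale, 1 symbol per drug array, with a grey band for differences under 2-fold and open symbols where 1 or both arrays of the difference were not well above background. Most class I genes lie near 0. With all 3 drugs *CIITA*, *HLA-DRA* and *HLA-DQB1* lie left of the band, and *PSMB8*, *TAP1*, *CD74*, *HLA-DPB1* and *MICB* lie right of it.

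The class II genes covered a wider spread of differences than most class I genes, a description for which single arrays allow no test. Of the genes well above background on all 4 arrays, 15 of 19 in class I (78.9%) had a mean difference over the 3 drugs of under 0.5 in size, but 3 of 9 in class II (33.3%), and 8449 of 15977 named genes (52.9%). These shares depend on the cut. *HLA-DRB1* at 0.52 and *HLA-DMB* at −0.54 lay just past it in class II, as did *PSMB9* at 0.53 in class I. The median of the mean difference was 0.08 over the 20 class I genes and −0.21 over the 12 class II genes. Among the genes well above background on every array it ranged from −0.65 for *CANX* to 1.17 for *TAP1* in class I and from −2.10 for *HLA-DQB1* to 1.27 for *HLA-DPB1* in class II. The class I median was −0.06 when the array median, and not the 75th percentile, was set to 0, so its sign is not settled.

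Among the class II genes well above background on every array, the DP and the DQ chains lay at opposite ends, and the sequences around the start of *HLA-DPB1* and *HLA-DQB1* are shown for that reason, in the same form as above.
*HLA-DPB1*, chr6:33075740-33076039, plus strand: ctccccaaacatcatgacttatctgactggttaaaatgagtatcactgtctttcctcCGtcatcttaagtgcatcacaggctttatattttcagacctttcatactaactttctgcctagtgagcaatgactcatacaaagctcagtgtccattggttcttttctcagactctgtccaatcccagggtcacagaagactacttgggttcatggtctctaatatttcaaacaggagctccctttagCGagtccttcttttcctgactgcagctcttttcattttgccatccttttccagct
*HLA-DQB1*, chr6:32666608-32666907, minus strand: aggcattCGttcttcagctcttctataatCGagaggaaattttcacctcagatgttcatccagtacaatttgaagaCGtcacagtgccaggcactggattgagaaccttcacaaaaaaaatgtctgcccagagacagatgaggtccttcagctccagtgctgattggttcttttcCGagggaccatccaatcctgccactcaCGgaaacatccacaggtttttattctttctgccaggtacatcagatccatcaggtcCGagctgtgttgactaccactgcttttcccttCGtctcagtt

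These windows hold 2 and 7 CpG dinucleotides, respectively. *HLA-DPA1* and *HLA-DPB1* are next to each other on chromosome 6, as are *HLA-DQA1* and *HLA-DQB1*.

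*HLA-DPB1*, the beta chain of HLA-DP, had a level of −0.04 in mock, 1.21 with DAC, 1.20 with OR-2003 and 1.28 with OR-2100. The 3 drug arrays were close together and stood 2.38-fold, 2.36-fold and 2.50-fold above mock. All 4 probes of *HLA-DPB1* were higher with every drug, with mean differences of 1.27 to 1.5, and 3 of them were induced with every drug. With normexp the difference with OR-2003 was 0.99, which missed the criterion. *HLA-DPA1*, the alpha chain of the same molecule, had a level of −0.99 in mock, −0.02 with DAC, 0.25 with OR-2003 and 0.22 with OR-2100. Its folds were 1.96, 2.36 and 2.32, so DAC, with a log2 difference of 0.97, fell just short of 2-fold. The second probe of *HLA-DPA1* differed by 0.24, 0.18 and 0.21, and with the mean of both probes or with normexp *HLA-DPA1* was induced with no drug.

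*HLA-DQB1*, the beta chain of HLA-DQ, had a level of 1.42 in mock, −0.70 with DAC, −0.63 with OR-2003 and −0.69 with OR-2100. The drug arrays were 4.38-fold, 4.17-fold and 4.34-fold below mock. All 5 probes of *HLA-DQB1* were lower with every drug, with mean differences between −2.51 and −0.81, and 2 of them were reduced by the criterion with every drug. The call was lost when arrays were scaled on bright probes alone, because the mock level then came to lie just under −1, though the mean difference was still −1.89. The paralog *HLA-DQB2*, which is close in sequence, differed by −1.19, −1.10 and −1.31, and whether the probes of the DQ beta chains share transcripts was not tested. *HLA-DQA1*, the alpha chain, was not well above background on any array with either of its probes, so no partner value can be set beside *HLA-DQB1*.

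*HLA-DRA*, the alpha chain of HLA-DR, had a level of −2.04 in mock and −3.70, −3.67 and −3.78 with the drugs. It was well above background on every array and was 3.17-fold, 3.11-fold and 3.35-fold lower with DAC, OR-2003 and OR-2100, but it was not counted as reduced because its mock level was under −1. With normexp the differences were −0.64, −0.57 and −0.68. *HLA-DRB1*, the beta chain, had the opposite sign, with a level of 1.17 in mock and 1.66, 1.64 and 1.79 with the drugs, each under 2-fold. Its second probe had 1.20, 1.39, 1.35 and 1.30 in the same order, so the mean differences of the 2 probes were 0.52 and 0.15. *HLA-DRB5*, another DR beta chain, differed by 1.03, 0.82 and 0.95 and was induced with DAC only. Whether the probes of the DR beta chains share transcripts was not tested.

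The 4 genes of peptide exchange were neither induced nor reduced. *HLA-DMA* and *HLA-DMB*, the chains of the exchange factor, were below mock with every drug, with differences of −0.49 to −0.41 and of −0.77 to −0.35. *HLA-DOA* and *HLA-DOB* encode the modulator of that factor. *HLA-DOA* was above mock by 0.18, 0.21 and 0.52, but its second probe differed by −0.98, −0.79 and −0.84, and no direction can be given for the gene. *HLA-DOB* differed by −0.49, −0.45 and 0.13.

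The remaining class II genes, *CIITA* and *CD74*, were close to the limit of detection. *CIITA*, the master transactivator of class II genes, was well above background in mock, at −3.90, and not on the drug arrays, at −5.57, −5.81 and −5.93. This made mock at least 1.43-fold, at least 1.40-fold and at least 1.57-fold higher than DAC, OR-2003 and OR-2100, respectively. A second probe of *CIITA* was not well above background on any array. *CD74*, the invariant chain, was not well above background in mock or with DAC, at −6.52 and −5.12, and was with OR-2003 and OR-2100, at −4.00 and −3.66. These were at least 1.22-fold and at least 1.55-fold higher than mock, and with normexp the differences from mock were −0.04, 0.07 and 0.11. Neither gene reached the level of −1 on any array.

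Since class II genes mark professional antigen presenting cells, the identity of the cells was read from marker genes. Of 7 markers of colon epithelium, 6 were well above background on every array, and *VIL1* was not in mock. *KRT8*, *KRT18*, *KRT19* and *CDX2* were above mock with every drug, with mean differences of 0.55, 0.52, 0.34 and 0.23, while *EPCAM* and *CDH1* were reduced with every drug, with −1.49 and −1.17. Of the 7 leukocyte markers with a probe, 5 were well above background on every array, *CD3E* with OR-2100 only and *MS4A1* on none. Their summed linear level, in multiples of the 75th percentile, was 13.6 in mock, 15.5 with DAC, 16.7 with OR-2003 and 16.4 with OR-2100, and most of it came from *CD79A*, whose level was 3.65 in mock and 3.40 to 3.53 with the drugs. *CD14* had −2.27 in mock and −0.58, −0.57 and −0.56 with the drugs and was induced with every drug, while the pan-leukocyte marker *PTPRC* had −1.48 in mock and −1.79, −1.75 and −1.64 with the drugs. The part of these genes in the class II values was not tested. In RNA of a whole culture, fewer expressing cells and less RNA per cell cannot be told apart.

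Other probes of the same genes give a further view of how firmly a value stands. Over the 33 genes 57 probes were named, and 15 genes had more than 1 probe well above background on some array. For 4 of these 15 the detected probes differed in the sign of their mean difference, and for 6 genes the probes ranged over more than 0.5 on the log2 scale. *TAP1*, *PSMB8*, *HLA-DRA* and *CD74* each rest on 1 probe.

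**Figure D3:**
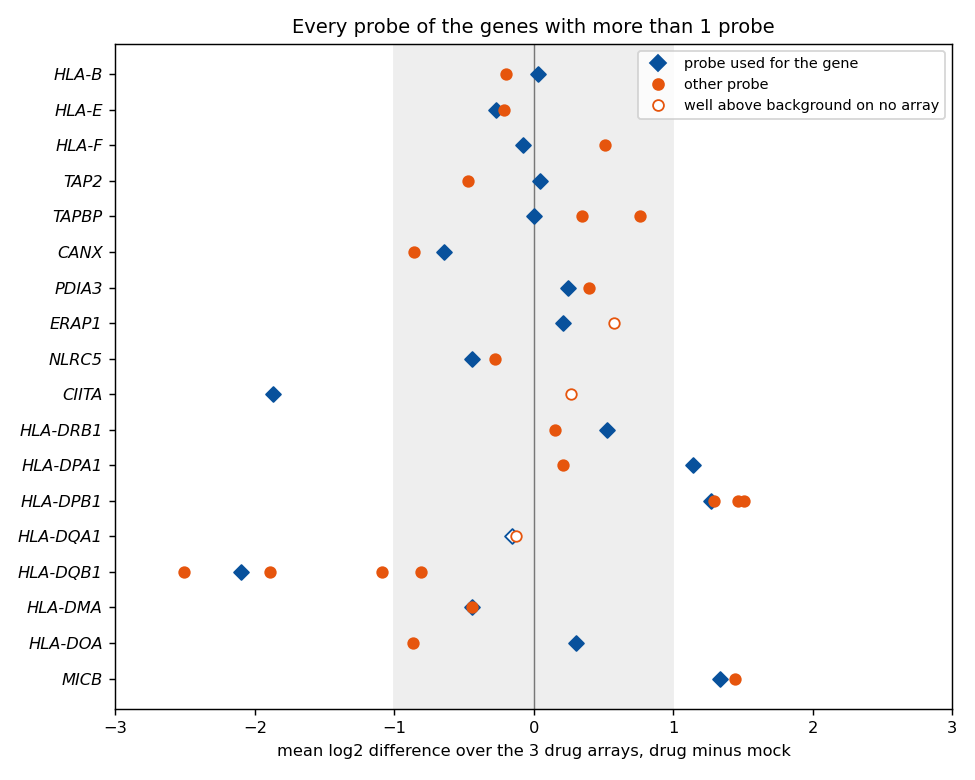
Mean difference from mock over the 3 drug arrays (log2) for every probe of the 18 genes with more than 1 probe, with diamonds for the probe used and circles for the others, open where the probe was well above background on no array. All probes of *HLA-DPB1* and *MICB* lie right of the 2-fold band and all probes of *HLA-DQB1* left of 0, while the probes of *HLA-DOA* lie on opposite sides of 0 and those of *HLA-DPA1* are 0.93 apart.

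The 3 drugs were given at the same dose and time and were compared with each other in 3 pairs, each a difference of 2 single arrays and so without a test. Of 31 genes detected on at least 1 of the arrays of a pair, 1 was 2-fold apart between OR-2003 and DAC, 1 between OR-2100 and DAC, and 0 between OR-2100 and OR-2003, against 1.34%, 1.5% and 2.68% of all named genes detected in the same way. In both cases the gene was *CD74*, which was at least 1.33-fold higher with OR-2003 and at least 1.69-fold higher with OR-2100 than with DAC, and whose level with DAC was not well above background. Among the 29 genes well above background on all arrays, OR-2003 minus DAC ranged from −0.16 to 0.27, the highest value being that of *HLA-DPA1*. OR-2100 minus DAC ranged from −0.29 to 0.62 and OR-2100 minus OR-2003 from −0.42 to 0.58, with *HLA-DOB* highest in both. Over the 31 genes the median differences were −0.01, 0.09 and 0.06 for the 3 pairs in this order, and those of all named genes were 0.01, −0.08 and −0.09. OR-2100 was higher than DAC for 18 of the 29 genes, among them *TAP1*, and lower for 11, among them *MICB*. With 1 array per drug, no interval between cultures can be given for these differences, and they do not show that the drugs act alike.

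The 2 arms differed in the sequence around their gene starts. RefSeq windows were matched for 29 of the 34 genes, and those of *HLA-E*, *PDIA3*, *NLRC5*, *CIITA* and *HLA-DRA* were not among the sequences used. The 17 class I windows held a median of 19 CpG dinucleotides (range 1 to 31) and the 10 class II windows a median of 3 (range 1 to 7), against 13 over all promoters. Induced genes were found at both low and high counts, with 2 for *HLA-DPB1*, 4 for *HLA-DPA1*, 11 for *TAP1*, 15 for *PSMB8* and 20 for *MICB*. These counts describe 1 window per gene of the reference sequence, and not other annotated starts or methylation.

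**Figure D4:**
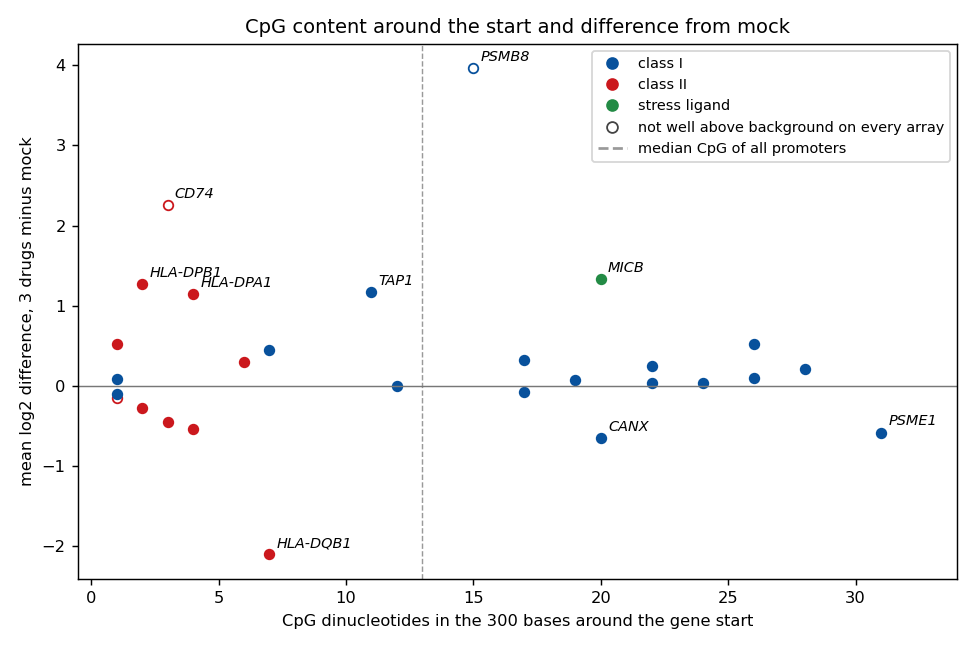
CpG dinucleotides in the 300 bases around the gene start (x axis) and mean difference from mock over the 3 drugs on the log2 scale (y axis), 1 point per gene with class I in blue, class II in red and *MICB* in green, open where the gene was not well above background on every array. The class II genes all lie at 7 or fewer CpG dinucleotides, left of the dashed line at the median of 13 over all promoters, and include *HLA-DQB1*, the lowest point on the y axis.

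Letters of known regulatory elements were searched for in the same windows on both strands. The core of the interferon-stimulated response element, GAAA and GAAA with 2 bases of any kind between them, was found in 9 of 17 class I windows, in 0 of 10 class II windows and in 3.65% of all promoters. Counted from the start, the match began at −4 in *PSMB8*, and in *B2M* overlapping matches began at −144 and −138. TTC and GAA with 3 bases of any kind between them, the letters of a gamma-activated site, were found in 2 class I windows, those of *PSMB8* and *TAP1*, in 1 class II window, that of *HLA-DQA1*, and in 7.94% of all promoters. CCAAT, the letters of the Y box bound by NF-Y, was found in 8 of 17 class I and 9 of 10 class II windows, against 35.6% of all promoters. A kappaB-like stretch, GGGA and CC with 4 bases of any kind between them, was found in 6 class I and 5 class II windows and in 25.1% of all promoters, and TGACG, the letters of a cyclic AMP response element, in 5 class I and 5 class II windows and in 24.6%. Matches are descriptions of letters and not measured binding.

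Of 74 other genes of the pathway, 72 had a probe, and DAC, OR-2003 and OR-2100 induced 7, 6 and 6 of them and reduced 6 each. These are 9.72%, 8.33% and 8.33% induced and 8.33% reduced, beside 5.77%, 5.89% and 5.81% of all named genes induced and 5.96%, 6.05% and 6.82% reduced. With all 3 drugs 5 were induced and 6 were reduced, beside 5.27% and 5.21% of all named genes. *IRF1*, the interferon-inducible factor that acts on class I promoters, was above mock by 0.41, 0.20 and 0.41. Of the 7 genes of the RFX, NFY and CREB enhanceosome, which assembles on class I and class II promoters, 6 were below mock with every drug. The median of the list was −0.67, beside −0.21 over all probes well above background on every array. The share of all named genes below mock with every drug was not counted. *NFYA* differed by −1.87, −1.81 and −1.94 and *NFYB* by −1.36, −1.32 and −1.75, and both were reduced with every drug.

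The genes of the constitutive proteasome stayed near mock, with 11 of 13 under 0.5 in mean difference and a median of 0.05. *PSME4*, the alternative activator PA200, had the values farthest from mock in this list, of 1.05, 1.06 and 0.98. Among other peptidases and loading factors of the endoplasmic reticulum, *HSPA5*, the chaperone BiP, was reduced with differences of −1.45, −1.34 and −1.41 and *GANAB*, a subunit of glucosidase II, with −1.07, −1.14 and −1.16. Among the endolysosomal proteases, *IFI30*, the lysosomal thiol reductase, was induced by 1.08, 1.16 and 1.11, and *CTSH*, the protease cathepsin H, was reduced with −1.04, −1.05 and −1.0.

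The 4 other NKG2D ligands with a probe held calls in both directions. *ULBP2* was induced, by 1.11, 1.07 and 1.06, and *ULBP1* was reduced, with a level of 3.92 in mock and 1.41, 1.34 and 1.41 with the drugs. Among costimulators and checkpoint ligands, 2 of 7 were induced. *ICAM1*, an adhesion molecule that binds LFA-1 on T cells, was above mock by 2.31, 2.22 and 2.42, and *CD86*, a ligand of CD28, by 1.97, 2.16 and 1.69. *CD274*, which encodes PD-L1, had −3.37 in mock and −2.04, −1.81 and −1.84 with the drugs, and did not reach the level of −1.

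**Figure D5:**
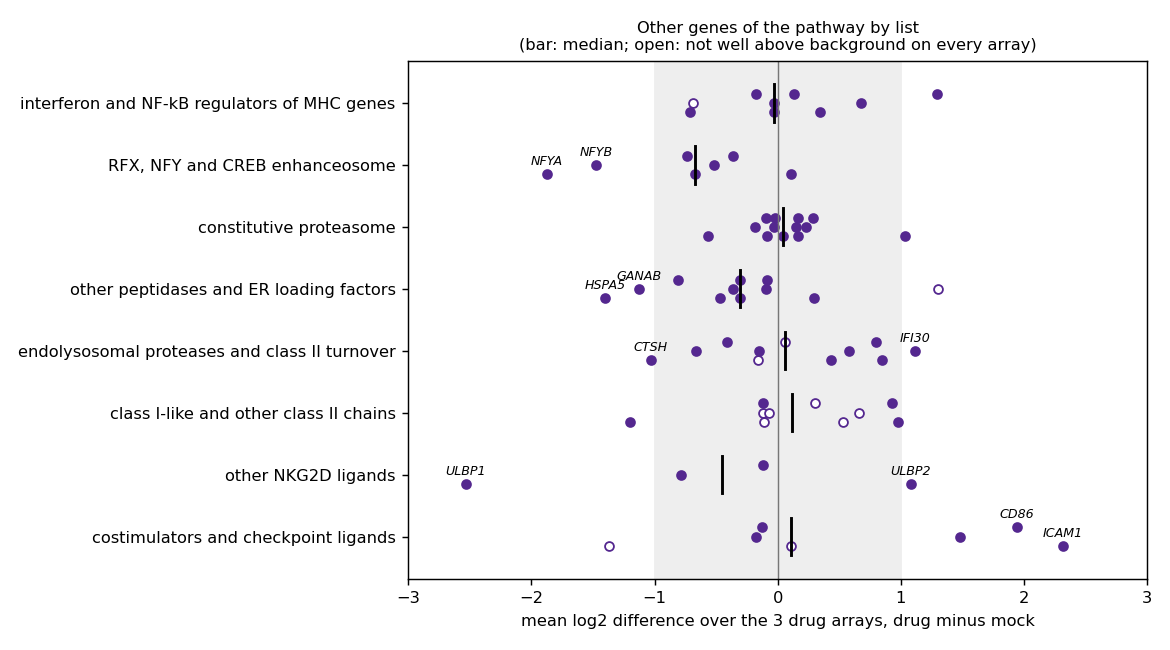
Mean difference from mock over the 3 drug arrays (log2) for the 72 other genes of the pathway with a probe, grouped by list, with a black bar at the median of each list, a grey band for differences under 2-fold and open symbols where a gene was not well above background on every array. Labels mark genes that the text gives as induced or reduced with all 3 drugs, with *ICAM1* and *CD86* farthest right and *ULBP1* and *NFYA* farthest left, and the constitutive proteasome is close to 0.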

How the data were processed

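Expression in HML58-3 cells was measured on 4 one-colour Agilent SurePrint G3 Human arrays of 1 slide, 1 array per condition, which limits the precision, and groups came from the sample titles. The authors deposited the scanner output of Feature Extraction 12.1.0.3, in which each spot has a processed intensity, already background-subtracted by the software, and flags for background, saturation and uniformity. The deposited series table held the same intensity values. Spots marked as nonuniform or outliers were left out (52 to 98 gene spots per array), 0 spots were saturated, spots of a probe were averaged, and log2 intensity minus the 75th percentile of all 58201 gene probes was used, as in the study's methods. Between 31601 and 33282 probes were well above background per array. The array's annotation was not used for names: RefSeq accessions named 34892 probes.

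With 1 array per condition no test was possible, and calls used the fold and level criterion given in the results. The error within an array came from probes with 10 spots. Fold bounds for dim probes used the lowest signal well above background on that array, or the probe's own signal where that was higher. Windows around gene starts came from RefSeq (GRCh38.p14), of which gene order alone was otherwise used. Of several windows of 1 gene, the one with the lowest coordinate was kept, and other starts were not read. The genes, the lists and the motifs were chosen with earlier results of these data known. All listed genes are named, and of the other pathway genes those called with all 3 drugs, some values not being reported here, *UCHL1* and *SFRP1* being the drug check. *IRF1*, *PSME4*, *CD274*, *HLA-DQB2* and *HLA-DRB5* were named after their values were seen. Alternatives were another background correction, scaling, floor, threshold and probe choice. The steps, quantile normalization included, were run with Python 3.11.15, pandas 2.3.3 and numpy 2.4.6. Only normexp, with an offset of 50, used limma 3.58.1 in R 4.3.3. The code of the calls was checked on simulated data in which bright probes were changed 4-fold. That check does not bear on calls near 2-fold or from dim probes.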

Additional observations from a re-analysis of the deposited data

How the results depend on the processing

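The 6 genes called with any drug kept the sign of their mean difference under all 8 alternatives that give one, with ranges of 1.03 to 1.38 for *TAP1*, 1.44 to 4.17 for *PSMB8*, 1.06 to 1.48 for *HLA-DPB1*, 0.68 to 1.35 for *HLA-DPA1*, 1.19 to 1.54 for *MICB* and −2.24 to −1.56 for *HLA-DQB1*. Of the 33 genes, 22 kept their sign under all 8 and 11 did not, which were *CALR*, *ERAP2*, *HLA-B*, *HLA-C*, *HLA-DOA*, *HLA-DQA1*, *HLA-E*, *HLA-F*, *HLA-G*, *TAP2* and *TAPBP*. With arrays scaled on the 75th percentile of the probes that every array detected, which places the level of −1 higher by construction, DAC, OR-2003 and OR-2100 induced 2, 2 and 3 genes and reduced 0, 0 and 0, with *PSMB8* and *HLA-DPA1* losing their calls with every drug and *HLA-DPB1* with DAC and OR-2003. The class I median was then 0.29, the class II median −0.0056 and the median of all named genes 0.06, from −0.15. With the array median set to 0, 3, 3 and 3 genes were reduced, *CIITA* and *HLA-DRA* joining *HLA-DQB1*, and *TAP1* was induced with OR-2100 only. Without the level threshold 3, 3 and 3 were also reduced. At 4-fold, 1, 1 and 1 were induced, namely *PSMB8*. With normexp, OR-2003 induced 2, and 0 genes were 2-fold apart between drugs, as with a floor at the background limit. Quantile normalization gave a class I median of 0.33 and 1 gene 2-fold apart between drugs. The causes were not tested. Naming probes by a gene name in the files was not run, as the files used here hold no such column. No paired analysis was possible because each group is 1 array. No array could be left out for the same reason.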

Other observations

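Noncoding genes and pseudogenes of the same region, chosen after the values above were seen, were read as well, and 11 of 15 had a probe. *PSMB8-AS1*, an antisense transcript of the *PSMB8* locus, had a level of −2.27 in mock, −1.65 with DAC, −1.44 with OR-2003 and −1.36 with OR-2100. All 3 drug arrays were above mock, by 0.62, 0.83 and 0.91, which is under 2-fold. *HCG4*, a pseudogene of the class I region, was above mock by 0.60, 0.68 and 0.76. *HLA-J*, a class I pseudogene, had 6.18 in mock and 6.13, 6.07 and 6.35 with the drugs, and *HCP5*, a noncoding gene close to *MICB*, had 2.96, 2.79, 2.69 and 2.93. *HLA-DQB1-AS1*, *HLA-L* and *HLA-V* were not well above background on any array. Whether these probes also bind transcripts of the coding genes was not tested.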
